A study of Mus musculus with 160 samples.

Results

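The 65 induced hematopoietic endothelial cells (iHECs) of this series were divided by the level of Sfpi1, the gene of the transcription factor PU.1. The cells were chosen by this readout alone: 23 of the 65 iHECs had Sfpi1 above 1 TPM (a transcript's length-scaled share of all transcripts in the cell) and are called Sfpi1+, and the 42 others had it at 1 TPM or less and are called Sfpi1-. The question was whether iHECs with Sfpi1 already carry transcripts of blood genes such as Coro1a and Tyrobp, and fewer endothelial transcripts. The whole series holds 160 single cells.

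All cells came from mouse cultures of the C57BL/6 strain. The iHECs arise from pluripotent stem cells that carry a Runx1-p2a-Hoxa9 cassette in Rosa26, switched on by doxycycline. The labels speak of embryonic and induced pluripotent stem cells without assigning a cell to either, and the study describes lines that grew out under hygromycin selection. The iHECs were sorted as CD31+CD41lowCD45-c-kit+CD201high single cells, so both classes share the cassette, the strain and the gate. For reference, levels are given in 21 day-14 induced hematopoietic progenitor cells (iHPCs), sorted as CD45+ blood cells after 3 days on OP9-DL1 stroma, a feeder line that displays a Notch ligand. No label names an animal, culture or experiment, so the iHECs count as 1 sample. Differences between the classes are therefore differences between cells of that sample, without a replicate check and without a test.

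PU.1 is an ETS-family transcription factor that binds DNA at a purine-rich GGAA core. It is required for myeloid and lymphoid development, and its targets include receptors, signaling adaptors and the phagocyte oxidase. Hematopoietic endothelial cells are endothelial cells that turn into blood cells, and in doing so they lose endothelial junctions and gain genes of blood cells. Coro1a encodes coronin 1A, an actin-binding protein of leukocytes. Tyrobp encodes DAP12, an adaptor with an ITAM that passes on signals of receptors on myeloid and natural killer cells. Sox18 and Ecscr mark the endothelial state, as a transcription factor and a surface protein.

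The table gives TPM and not read counts, which leaves sequencing depth per cell unknown, and the number of genes above 1 TPM is the only measure of how well a cell was captured. It ran from 3359 to 7533 with a median of 5028 in Sfpi1+ iHECs and from 3309 to 6502 with a median of 4826 in Sfpi1- iHECs. A value of 0 can be a missed transcript: Tbp, which every cell uses, was listed at 0 in 8 Sfpi1+ and 12 Sfpi1- iHECs. Among 2080 pairs of iHECs, 4 pairs stood apart, with Spearman correlations between 0.962 and 0.98 over the genes tested, while the next pair had 0.734. Their cells bear neighboring numbers (5 and 6, 15 and 16, 24 and 25, 32 and 33), and 15 and 16 were both Sfpi1+. Whether each pair is a single cell was not tested. Counted as 1 cell each, they leave 22 Sfpi1+ and 39 Sfpi1- iHECs, and the main counts below are also given that way.

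The Sfpi1 values themselves, which made the classes and are given as a description only, left a wide gap. The 23 Sfpi1+ iHECs ran from 11.1 to 851 TPM with a median of 192, and 15 of them were above 100 TPM. Of the Sfpi1- iHECs, 36 were listed at 0 and the 6 nearest to the threshold lay between 0.0732 and 0.873 TPM. There were 0 cells between 1 and 10 TPM, so that a threshold of 10 TPM chooses the same cells. Sfpi1 (current symbol Spi1) lies at chr2:91082390-91115756 on the plus strand of GRCm38. In day-14 iHPCs Sfpi1 was above 1 TPM in 20 of 21 cells, with a median of 664 TPM.

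Both classes met their label as endothelial cells by the fixed markers. Ecscr was above 1 TPM in 23 of 23 Sfpi1+ and 42 of 42 Sfpi1- iHECs, Sox18 in 23 and 40, Cdh5 (VE-cadherin) in 22 and 41, and Pecam1 (CD31) in 22 and 42. Ptprc, which encodes CD45, was above 1 TPM in 1 Sfpi1+ iHEC at 53.9 TPM and in 0 Sfpi1- iHECs, where 0 of 42 allows a share of up to 7.14%. The gate removes CD45 protein, and so limits what Ptprc can show. The gated genes Kit and Procr (CD201) were above 1 TPM in 17 and 22 Sfpi1+ and in 31 and 37 Sfpi1- iHECs. Transcripts of the cassette and of the native loci cannot be told apart in this table: Runx1 was above 1 TPM in 23 of 23 and 36 of 42 cells, and Hoxa9 in 21 and 34. Itga2b (CD41), also part of the gate, was above 1 TPM in 9 Sfpi1+ and 17 Sfpi1- iHECs, while 14 cells had Sfpi1 without Itga2b and 25 had neither.

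Coro1a was above 1 TPM in 10 of 23 Sfpi1+ iHECs, 43.5% with an exact Clopper-Pearson 95% interval of 23.2 to 65.5%. In Sfpi1- iHECs it was above 1 TPM in 4 of 42, 9.52% with an interval of 2.66 to 22.6%. The intervals, like all those below, cover counting error only. Levels in Sfpi1+ iHECs ran from 0 over a median of 0.113 to 448 TPM, and the 10 cells above 1 TPM lay between 12.2 and 448 TPM. The 4 Sfpi1- iHECs above 1 TPM had 1.45, 2.16, 13.9 and 14 TPM, and 9 Sfpi1+ iHECs exceeded the highest of them. On the log2(TPM + 1) scale, the mean over Sfpi1+ iHECs was 2.69 higher than over Sfpi1- iHECs. The gene (chr7:126699773-126707787, minus strand, GRCm38) shares exon sequence with Bola2 on the other strand, and the library kit is not stated to keep strand. Bola2 was above 1 TPM in all 65 iHECs and differed by 0.43. With the 4 like pairs counted once, Coro1a was above 1 TPM in 9 of 22 and 3 of 39.

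Tyrobp separated the classes by level more than by the number of cells. It was above 1 TPM in 8 of 23 Sfpi1+ iHECs (34.8%, interval 16.4 to 57.3%) and in 9 of 42 Sfpi1- iHECs (21.4%, interval 10.3 to 36.8%), and the intervals overlap widely. In the 8 Sfpi1+ iHECs it lay between 27.3 and 1560 TPM, and in the 9 Sfpi1- iHECs between 1.04 and 108 TPM, so that 6 Sfpi1+ iHECs exceeded every Sfpi1- iHEC. Both classes had a median of 0 TPM. The difference of means was 2.06 on the log2(TPM + 1) scale, and it was 3.18 among cells at or above the median number of genes and 0.77 among those below it. Tyrobp lies at chr7:30413760-30417585 on the plus strand of GRCm38. In day-14 iHPCs both blood genes were above 1 TPM in 21 of 21 cells, with medians of 1500 TPM for Coro1a and 1520 TPM for Tyrobp, far above the medians of either iHEC class.

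**Figure D1:**
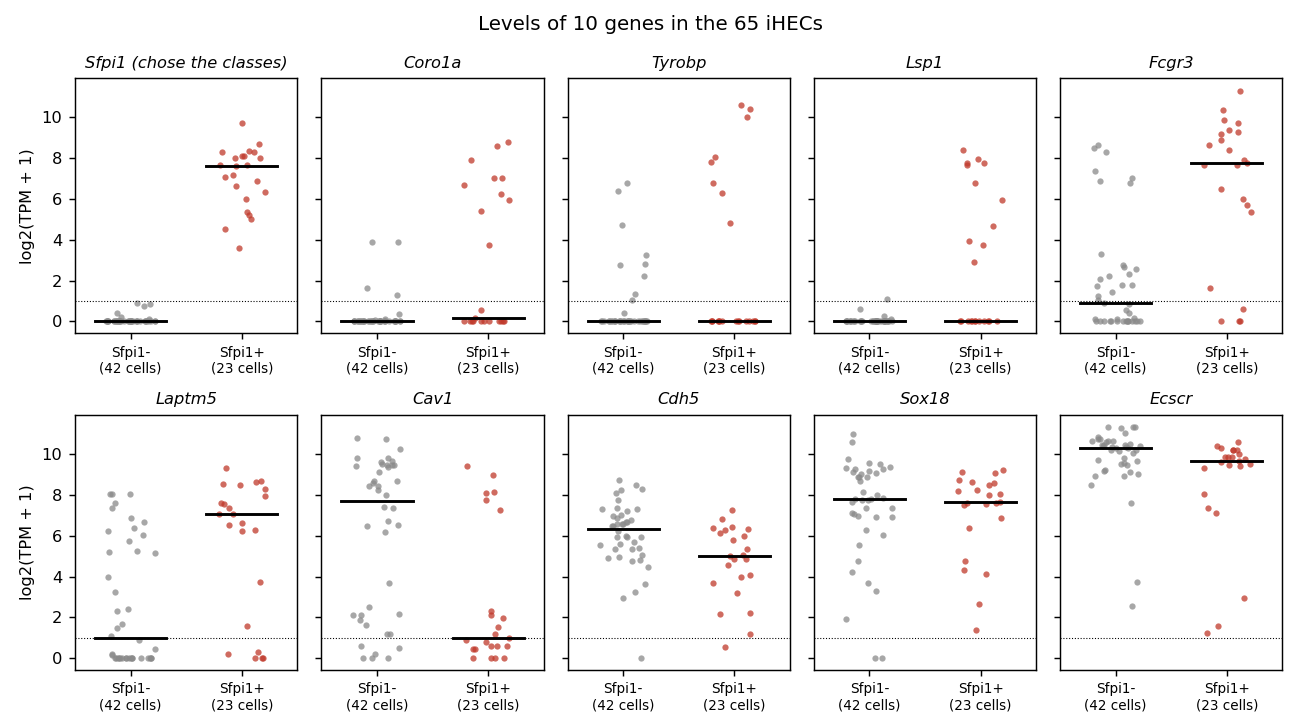
Levels of 10 genes as log2(TPM + 1) in each of the 65 iHECs, with 42 Sfpi1- cells in gray and 23 Sfpi1+ cells in red. Each point is a cell, the black bar is the median of the class with values of 0 included, and the dotted line marks 1 TPM. Coro1a, Tyrobp and Lsp1 were high in some Sfpi1+ cells and at 0 in others, while Sox18 overlapped almost wholly.

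Taking the 3 genes together, 6 Sfpi1+ iHECs had Coro1a and Tyrobp as well, 4 had Coro1a only, 2 had Tyrobp only and 11 had neither. Of the 42 Sfpi1- iHECs, 0 had both blood genes, 4 had Coro1a, 9 had Tyrobp and 29 had neither. The 6 triple cells had Sfpi1 between 98.0 and 851 TPM. The cell with the most Sfpi1, number 64, also had the highest Tyrobp (1560 TPM), the only Ptprc above 1 TPM, and Myb at 41 TPM. Its Cdh5 stood at 0.438 TPM, while its Ecscr was still at 162 TPM. Cell number 31 had 1360 TPM of Tyrobp and 240 TPM of Coro1a beside 1.37 TPM of Ecscr and 0.231 TPM of Pecam1. By contrast, cell number 29 combined 73.8 TPM of Coro1a and 27.3 TPM of Tyrobp with 715 TPM of Ecscr, 533 TPM of Sox18 and 31.3 TPM of Cdh5. The 6 had 34 to 61 of 84 endothelial genes above 1 TPM, and the 34 of cell number 31 were the fewest of all 65 iHECs, below the lowest Sfpi1- iHEC at 45.

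Across all genes, 8549 were above 1 TPM in more than 10 of the 65 iHECs, Sfpi1 left out. Of these, 135 (1.58%) were higher in Sfpi1+ iHECs by 2 or more on the log2(TPM + 1) scale and 19 (0.222%) were lower by as much. The same counts hold over all 23419 rows. The whole distribution leaned upward: 63.6% of the 8549 genes were above 0, with a median difference of 0.21, and Sfpi1+ iHECs also had more genes above 1 TPM. Relative to that median, the counts were 76 higher and 32 lower. With the linear trend of each gene over the number of genes per cell removed, they were 49 higher and 42 lower, of which 47 and 18 were among the first counts. With the 4 like pairs counted once they were 136 and 20, sharing 118 and 18 genes with the first counts.

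Among the 12 largest positive differences were those of Fcgr3 (4.62), Ifitm1 (4.05), Ctsc (3.26), Dcxr (3.21), Pim2 (3.21), Pdcd2 (3.17), Spr (3.17), Bscl2 (3.09), Ly6e (3.06), Snx10 (3.01) and Dlst (3.01). Fcgr3, a low-affinity IgG receptor that signals through an ITAM chain, was above 1 TPM in 19 of 23 Sfpi1+ iHECs (82.6%, interval 61.2 to 95%) and 20 of 42 Sfpi1- iHECs (47.6%, interval 32 to 63.6%). Its median was 219 TPM in Sfpi1+ against 0.842 TPM in Sfpi1- iHECs, and the ranges of 0 to 2490 and 0 to 395 TPM overlapped, with 9 Sfpi1+ cells above all others. Ifitm1, an interferon-induced membrane protein, had a median of 1160 TPM in Sfpi1+ and 19.2 TPM in Sfpi1- iHECs. Ctsc, the protease that activates granule enzymes, was above 1 TPM in 20 of 23 and 18 of 42 cells. The Ifitm and Fc receptor genes have close relatives whose reads may be shared, which leaves the split between family members uncertain. Several of these are not blood genes by their known roles: Dcxr and Spr are reductases, Dlst is a subunit of a mitochondrial dehydrogenase, and Bscl2 encodes the lipid droplet protein seipin. Pim2 is a kinase that favors survival and Snx10 a sorting nexin. Pdcd2 shares exon sequence with Tbp on the other strand.

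Several genes of leukocyte motility were higher in Sfpi1+ iHECs. Lsp1, an F-actin-binding protein of leukocytes, was above 1 TPM in 11 of 23 Sfpi1+ iHECs (47.8%, interval 26.8 to 69.4%) at 6.45 to 342 TPM. A single Sfpi1- iHEC of 42 passed 1 TPM (2.38%, interval 0.0603 to 12.6%), at 1.16 TPM, so that all 11 lay above the highest Sfpi1- cell. Lsp1 thus passed the filter of more than 10 iHECs almost wholly through Sfpi1+ cells. In the list of 20 leukocyte actin and motility genes, 15 were higher and 3 lower, where 63.6% of all genes tested were higher. The median difference was 0.46 over all 20, whether or not they passed the filter. It was 0.21 over all genes tested, which passed the filter, and 0 over all rows. Lsp1 (2.89), Coro1a (2.69) and Plek (2.04), pleckstrin, a kinase substrate of platelets and leukocytes, lay past 2. Plek shares exon sequence with Cnrip1 on the other strand. Lcp1 (-0.33) and Elmo1 (-0.29), by contrast, were above 1 TPM in most cells of both classes, 21 and 41 cells for Lcp1 and 20 and 39 for Elmo1. Rac2, a small GTPase of blood cells, was above 1 TPM in 4 Sfpi1+ and 0 Sfpi1- iHECs.

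ITAM signaling and surface genes gave a like picture. Of 19 ITAM adaptors and leukocyte kinases, 15 were higher and 2 lower, with a median over all members of 0.49, and Fcgr3, Ptpn6 (2.47) and Tyrobp lay past 2. Ptpn6 encodes the phosphatase SHP-1, and was above 1 TPM in 19 of 23 and 23 of 42 iHECs. Fcer1g, the sister adaptor of Tyrobp, differed by 1.90 and was above 1 TPM in 10 and 11 cells. Of 20 leukocyte membrane proteins, 13 were higher and 3 lower, with a median over all members of 0.38, while 63.6% of all genes tested were higher. Past 2 were Ly6e, a GPI-anchored protein, Laptm5 (2.94), a lysosomal protein of blood cells, and Alox5ap (2.65), which serves leukotriene synthesis. Laptm5 was above 1 TPM in 18 of 23 Sfpi1+ iHECs with a median of 131 TPM, and in 21 of 42 Sfpi1- iHECs with a median of 0.972 TPM. Its difference was 3.74 among cells at or above the median number of genes (4926) and 0.88 among those below it. Itgb2, the shared chain of the leukocyte integrins, was above 1 TPM in 6 of 23 Sfpi1+ (26.1%, interval 10.2 to 48.4%) and 0 of 42 Sfpi1- iHECs (up to 7.14%).

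Over the 3 lists together, 43 of 59 leukocyte genes were higher in Sfpi1+ iHECs, 8 were lower and 8 were equal. The share of higher genes was 63.6% over all genes tested, which passed the filter, while only 27 of the 59 did. Past 2 were 9 higher and 0 lower, beside 135 and 19 of all rows. No count over the 27 members that passed the filter is given, since a gene detected in few cells passes mainly where it is high.

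Myeloid effector and receptor genes were mixed, where 63.6% of all genes tested were higher. Cd68, a lysosomal glycoprotein, differed by 2.77 and was above 1 TPM in 13 and 8 cells. Of 22 granule, oxidase and phagocyte genes, 12 were higher, 2 lower and 8 equal, because 8 of them, among them Mpo, Elane, Cybb and Cd14, were above 1 TPM in 0 iHECs. Ncf1 was above 1 TPM in 5 Sfpi1+ and 0 Sfpi1- iHECs, and S100a8 in 4 and 0. Of 18 growth factor and cytokine receptors, 9 were higher and 5 lower, with a median of 0.03 over all members. Epor, the erythropoietin receptor, differed by -1.62 (4 and 18 cells). Csf1r, a receptor gene known as a PU.1 target, was above 1 TPM in 2 Sfpi1+ and 0 Sfpi1- iHECs, and Flt3 and Il7r in 0 iHECs.

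More blood transcription factors other than Sfpi1 were higher than lower in Sfpi1+ iHECs, as were the genes tested as a whole. Of 30 in the table, 20 were higher and 6 lower, where 63.6% of all genes tested were higher. Their median was 0.54 over all members, beside 0.21 over all genes tested, which passed the filter, and 0 over all rows. Id2 (2.53), a helix-loop-helix inhibitor, was above 1 TPM in 19 of 23 and 24 of 42 cells. Nfe2 (2.48), a factor of the megakaryocyte lineage, was above 1 TPM in 13 and 12 cells, and its difference was 4.49 below and 0.40 at or above the median number of genes. Lyl1 (1.71; 20 and 25 cells), Bcl11a (1.54; 10 and 7 cells), Ikzf2 (1.3; 14 and 12 cells) and Meis1 (1.08; 17 and 19 cells) were also higher. Myb was above 1 TPM in 3 Sfpi1+ and 0 Sfpi1- iHECs. Cebpa and Gata1 were above 1 TPM in 0 iHECs. Irf8 (-0.93; 4 and 15 cells), Gfi1 (-0.43; 4 and 11 cells) and Hhex (-1.30; 18 and 39 cells) were lower in Sfpi1+ iHECs. Of 16 genes of the endothelial to hematopoietic transition, 11 were higher and 5 lower, again beside 63.6% higher of all genes tested. The 4 with the widest differences were Cd44 (1.99), Neurl3 (1.92), Dnmt3b (1.55) and Hoxb5 (-1.50).

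**Figure D2:**
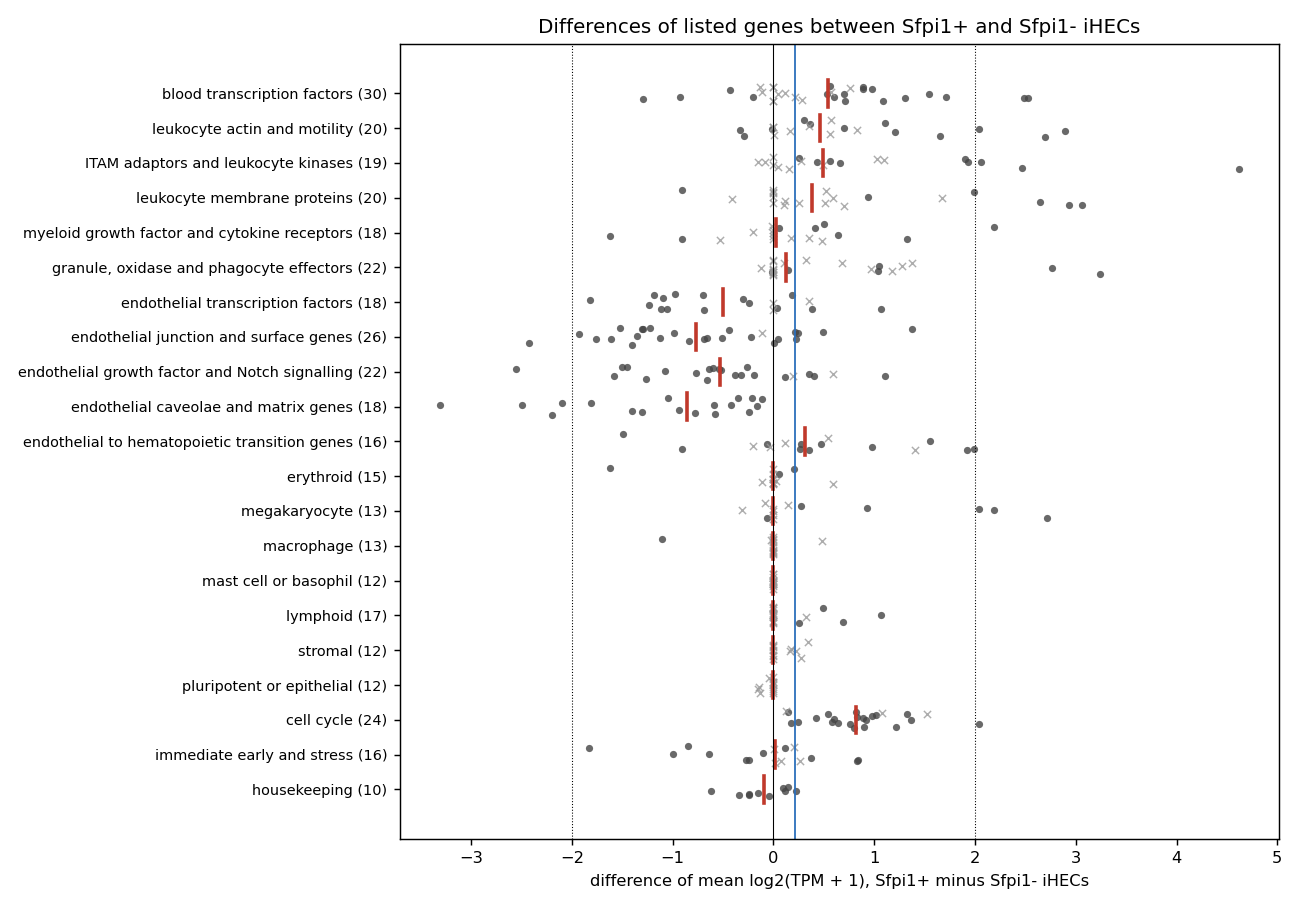
Difference of mean log2(TPM + 1), Sfpi1+ minus Sfpi1- iHECs, for the members of 21 gene lists, with the number of members in brackets. Dots are genes above 1 TPM in more than 10 iHECs, crosses are the others, red bars are medians over all members, the blue line is the median of the 8549 genes tested (0.21) and dotted lines mark -2 and 2. The 3 leukocyte lists lean right and the 4 endothelial lists lean left.

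The promoters of a few of these genes are shown because PU.1 binds a GGAA core, and the motif GAGGAAG, read on either strand, was searched in the RefSeq promoters of GRCm38.p6 (250 bases before to 50 after each start). Capitals mark the motif, and the 200 bases before the start are printed 5′ to 3′ on the gene's own strand. Fcgr3, Ctsc, Laptm5 and Pf4 are genes higher in Sfpi1+ iHECs with a match, Flt1 is a gene lower in them with a match, and Coro1a is a higher gene with 0 matches in the table's windows.
Fcgr3 (chr1:171059404-171059603, minus): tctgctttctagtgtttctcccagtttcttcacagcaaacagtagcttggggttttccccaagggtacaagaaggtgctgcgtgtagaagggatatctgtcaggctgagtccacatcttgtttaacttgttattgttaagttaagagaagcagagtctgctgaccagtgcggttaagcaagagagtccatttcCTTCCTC
Ctsc (chr7:88277885-88278084, plus): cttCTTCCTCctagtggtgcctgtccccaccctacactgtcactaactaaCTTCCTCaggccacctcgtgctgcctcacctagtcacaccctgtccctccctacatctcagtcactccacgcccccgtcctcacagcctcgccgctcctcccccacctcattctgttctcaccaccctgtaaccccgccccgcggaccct
Laptm5 (chr4:130913116-130913315, plus): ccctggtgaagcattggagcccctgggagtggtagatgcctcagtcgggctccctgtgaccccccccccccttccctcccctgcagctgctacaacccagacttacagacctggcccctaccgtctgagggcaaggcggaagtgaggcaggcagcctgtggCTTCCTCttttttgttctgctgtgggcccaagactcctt
Pf4 (chr5:90772235-90772434, plus): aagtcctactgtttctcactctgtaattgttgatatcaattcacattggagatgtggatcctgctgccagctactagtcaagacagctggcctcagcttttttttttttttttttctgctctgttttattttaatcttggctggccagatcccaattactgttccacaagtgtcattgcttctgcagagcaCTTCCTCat
Flt1 (chr5:147726012-147726211, minus): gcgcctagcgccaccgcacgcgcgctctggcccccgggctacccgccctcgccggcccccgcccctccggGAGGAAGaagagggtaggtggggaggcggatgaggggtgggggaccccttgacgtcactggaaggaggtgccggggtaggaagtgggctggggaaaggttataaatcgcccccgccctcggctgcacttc
Coro1a (chr7:126704817-126705016, minus): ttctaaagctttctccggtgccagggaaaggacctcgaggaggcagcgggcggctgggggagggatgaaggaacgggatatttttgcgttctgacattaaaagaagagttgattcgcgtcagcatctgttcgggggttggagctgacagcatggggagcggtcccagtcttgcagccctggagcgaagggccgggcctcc
The motif begins 7 bases before the start of Fcgr3, 39 before that of Laptm5 and 9 before that of Pf4. Ctsc has 2 matches. A match was found for 19 of the 113 higher genes with a promoter in the table (16.8%), for 2 of 15 lower genes (13.3%), for 15.6% of the 6858 tested genes with a promoter, and in 13.6% of all 32851 promoters. The RUNX motif TGTGGT was found for 11.5% of the higher and 14% of the tested genes, and the GATA motif AGATAA for 7.08% and 7.13%. None of the 3 motifs contains another. The shares of higher genes lay near those of all tested genes for each of the 3 motifs. These letters are a description of the windows and not of binding.

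On the endothelial side, the differences lay in level more than in the number of genes detected. Of 84 endothelial genes in 4 lists, 64 were lower in Sfpi1+ iHECs, 18 higher and 2 equal, with a median of -0.65 over all members. Over all genes tested 63.6% were higher, which is also the share to set beside the endothelial lists below. Of the 84 genes, 78 passed the filter. Past -2 were 6 and past 2 were 0, beside 19 (0.222%) and 135 (1.58%) of the 8549 genes tested. Ecscr had a median of 819 TPM in Sfpi1+ iHECs (1.37 to 1540) and 1250 TPM in Sfpi1- iHECs (4.88 to 2590), and differed by -1.22. The gene (chr18:35713086-35722356, minus strand, GRCm38) shares exon sequence with 1700066B19Rik on the other strand. Sox18 (chr2:181669836-181671640, minus strand) had medians of 200 and 223 TPM and differed by -0.24, and by 0.22 without the 6 triple cells. Cdh5 had medians of 31.3 and 80 TPM. In day-14 iHPCs Sox18 and Cdh5 were above 1 TPM in 0 of 21 cells, which allows a share of up to 14.3%, and Ecscr in 5.

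The caveolae and matrix genes stood lowest. All 18 members were lower in Sfpi1+ iHECs, with a median of -0.86, and 4 lay past -2: Cav1 (-3.31) and Cav2 (-2.50), which form the coat of caveolae, Fn1 (-2.20), fibronectin, and Cyr61 (-2.10), a matrix-bound signaling protein. Cav1 was above 1 TPM in 11 of 23 Sfpi1+ iHECs (47.8%, interval 26.8 to 69.4%) and in 36 of 42 Sfpi1- iHECs (85.7%, interval 71.5 to 94.6%). Its median was 0.956 TPM against 212 TPM, and the ranges of 0 to 678 and 0 to 1740 TPM overlapped. The Sfpi1+ cells divided into 6 with 151 TPM or more and 17 with 4.02 TPM or less, while 24 of 42 Sfpi1- iHECs were above 100 TPM. All 6 high Sfpi1+ cells were among those at or above the median number of genes, and there the difference was -1.74, beside -5.63 among the cells below it. With like pairs counted once, Cav1 was above 1 TPM in 10 of 22 and 34 of 39.

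Junction genes were lower with exceptions. Of 26 junction and surface genes, 19 were lower and 7 higher, with a median of -0.77. Cldn5, the tight junction protein claudin-5 (chr16:18776847-18778262, plus strand, GRCm38), lay past -2 at -2.42, with medians of 191 and 610 TPM and detection in 20 of 23 and 41 of 42 cells. Esam (-1.93), Icam2 (-1.77) and Plvap (-1.61) followed, and Procr, a gate gene, was higher (1.37). Of 22 growth factor and Notch signaling genes, 16 were lower and 6 higher, with a median of -0.53. Flt1, a VEGF receptor (chr5:147561604-147726011, minus strand, GRCm38), was above 1 TPM in 15 of 23 Sfpi1+ iHECs (65.2%, interval 42.7 to 83.6%) and 37 of 42 Sfpi1- iHECs (88.1%, interval 74.4 to 96.0%). Its medians were 7.25 and 88.6 TPM and its difference -2.56. Kdr, the main VEGF receptor, differed by -1.08 and was above 1 TPM in 22 and 41 cells, whereas the angiopoietin receptor family members Tie1 (1.11) and Tek (0.41) were higher. Of 18 endothelial transcription factors, 11 were lower and 5 higher with a median of -0.50, and 0 lay past 2 either way. Epas1 (-1.82) and Tcf4 (-1.24) were lower and Klf2 (1.06) was higher.

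The 12 lowest differences over all genes were those of Kcne3 (-3.38), Cav1, Igfbp3 (-2.57), Flt1, Gpihbp1 (-2.52), Cav2, Adm (-2.48), Cldn5, Itga1 (-2.40), Tspan15 (-2.38), Rspo3 (-2.32) and Leprotl1 (-2.21). Gpihbp1 carries lipoprotein lipase across capillary endothelium, Adm encodes a vasoactive peptide, Itga1 a collagen receptor chain and Rspo3 a Wnt potentiator. The differences were wider in cells with few genes: for Kcne3 they were -1.45 at or above and -5.57 below the median number of genes, for Flt1 -1.18 and -4.31, and for Cldn5 -1.25 and -4.25. The part of the number of genes in these differences was not tested.

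**Figure D3:**
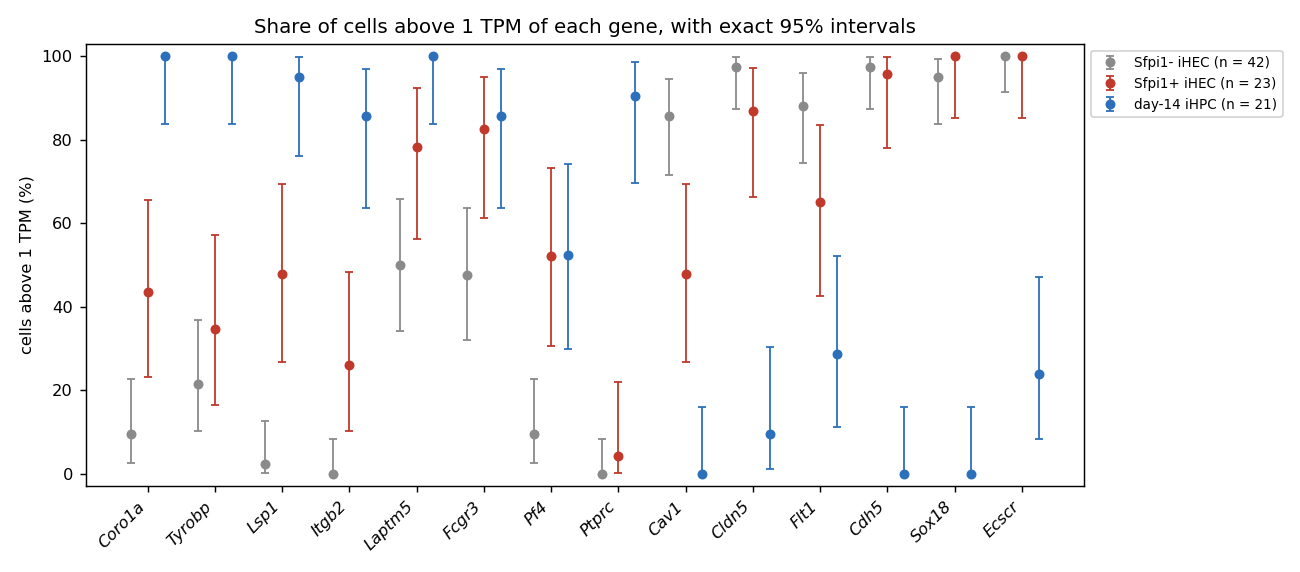
Percent of cells above 1 TPM for 14 genes in 42 Sfpi1- iHECs, 23 Sfpi1+ iHECs and 21 day-14 iHPCs, with exact Clopper-Pearson 95% intervals as bars. Lsp1 and Coro1a are more frequent in Sfpi1+ than in Sfpi1- iHECs and Cav1 less frequent, while the intervals of Tyrobp overlap.

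Counting genes per cell, Sfpi1+ iHECs had a median of 19 of the 59 leukocyte genes above 1 TPM (4 to 36; mean 19.7 ± 8.13, SD over 23 cells). Sfpi1- iHECs had a median of 12 (6 to 22; mean 12.8 ± 3.94, SD over 42 cells). At least 20 leukocyte genes were found in 11 Sfpi1+ cells and 1 Sfpi1- cell, and 7 Sfpi1+ cells lay above the highest Sfpi1- cell. The count also followed the total number of genes in a cell, with a Spearman correlation of 0.78 over the 65 iHECs, so it was compared within 2 ranges of that number. At or above the median the leukocyte medians were 21.5 (14 Sfpi1+ cells) and 15 (19 Sfpi1- cells), and below it 14 (9 cells) and 10 (23 cells). These ranges do not equalize the number of genes, which reached 7533 in Sfpi1+ and 6502 in Sfpi1- iHECs. Of the 7 Sfpi1+ cells above the highest Sfpi1- cell, cells 2, 15, 16, 29 and 38 also exceeded 6502 genes. Cells 15 and 16 are a like pair. The 6 triple cells, which were selected on 2 of the 59 genes, had a median of 29.5, and the 17 other Sfpi1+ iHECs one of 17. Day-14 iHPCs had a median of 51.

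Endothelial genes were nearly as many in both classes. Sfpi1+ iHECs had a median of 57 of 84 above 1 TPM (34 to 73; mean 55.9 ± 11.4, SD over 23 cells) and Sfpi1- iHECs a median of 60 (45 to 73; mean 59.9 ± 7.47, SD over 42 cells). The difference of medians was 3 genes, beside 7 for the leukocyte genes, and each is smaller than the SD among Sfpi1+ cells. The endothelial count also followed the total number of genes, with a Spearman correlation of 0.57 over the 65 iHECs. Within both ranges of that number the endothelial medians lay more than 3 genes apart. The difference was wider among cells with few genes (47 and 57) than among the others (61 and 65). Without the 6 triple cells, the Sfpi1+ median was 60, the same as in Sfpi1- iHECs. Day-14 iHPCs had a median of 21. Across the 23 Sfpi1+ iHECs, the Sfpi1 level had a Spearman correlation of 0.51 with the number of leukocyte genes and of -0.13 with that of endothelial genes. Over the 17 without the triple cells, the first was 0.15. Cells of 1 sample share their source, and these correlations are given as a description.

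**Figure D4:**
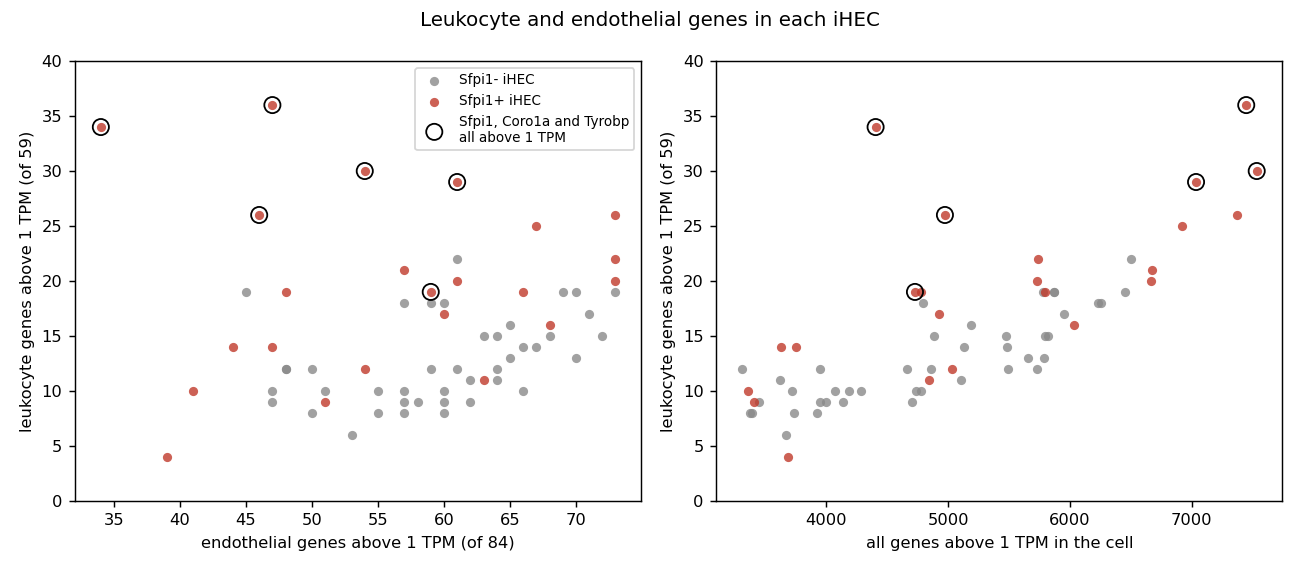
Left, number of 84 endothelial genes (horizontal) against number of 59 leukocyte genes (vertical) above 1 TPM in each iHEC. Right, all genes above 1 TPM (horizontal) against leukocyte genes (vertical). Sfpi1+ cells are red, Sfpi1- cells gray, and the 6 cells with Sfpi1, Coro1a and Tyrobp are ringed. Sfpi1+ cells reach 36 leukocyte genes and Sfpi1- cells 22.

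Markers of other cell types were mostly at or near 0, with exceptions. Of 12 mast cell or basophil genes, 12 were above 1 TPM in 0 iHECs, and so were 11 of 13 macrophage genes. The same held for 10 of 15 erythroid, 12 of 17 lymphoid, 7 of 12 stromal and 7 of 12 pluripotent or epithelial genes. Others were found in both classes. Lymphoid Gata3 was above 1 TPM in 12 Sfpi1+ and 16 Sfpi1- iHECs, Cd79b in 10 and 12, Lck in 7 and 9, and erythroid Car2 in 20 and 37. Of 16 immediate early and stress genes, 9 were higher and 7 lower, with Egr1 at -1.83, where 63.6% of all genes tested were higher. Of 10 housekeeping genes 4 were higher and 6 lower with a median of -0.10. Mrc1, a macrophage and endothelial scavenger receptor, was above 1 TPM in 1 Sfpi1+ and 10 Sfpi1- iHECs. Of 13 megakaryocyte genes, 6 were higher, 3 lower and 4 equal, beside the same 63.6%, and Pf4 and Plek were among those past 2. Pf4, platelet factor 4, was above 1 TPM in 12 of 23 Sfpi1+ iHECs (52.2%, interval 30.6 to 73.2%) and 4 of 42 Sfpi1- iHECs (9.52%, interval 2.66 to 22.6%). Of the day-14 iHPCs, 11 of 21 had it above 1 TPM. The platelet genes Ppbp, Gp5 and Treml1 were above 1 TPM in 0 iHECs.

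Cell cycle genes differed with the number of genes per cell. All 24 were higher in Sfpi1+ iHECs, where 63.6% of all genes tested were higher. Their median was 0.82, and Mcm6, a subunit of the replicative helicase, lay past 2 (2.04). Their mean difference was 0.83 over all iHECs, 1.13 at or above the median number of genes, -0.08 below it and 0.32 with the trend over that number removed. The number of these genes above 1 TPM per cell had a median of 8 (2 to 24) and 7 (1 to 21).

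Over the 65 iHECs, genes among the 10 whose level followed Sfpi1 most closely by Spearman correlation were Fcgr3 (0.57), Pim2 (0.55), Ifitm2 (0.55), Lsp1 (0.54), Siva1 (0.54), Ifitm1 (0.53), Spr (0.50) and Ly6e (0.49). Most of them are also among the differences above, as they rest on the same cells. Cells were also placed by genes that passed a filter and were not in the lists, 8352 for the iHECs alone. Among the 10 nearest iHECs of a Sfpi1+ cell, 43.9% ± 18.5 (SD over 23 cells) were Sfpi1+, where the class sizes alone give 34.4%. For Sfpi1- cells the share was 34.3% ± 13.6 (SD over 42 cells), where the sizes give 35.9%. With 1 minus the Spearman correlation as the distance, the shares were 56.5% and 53.3%, both above those from the sizes and closer to each other. All iHPCs of the series were then added, 21 from day 14, 18 from day 17 and 56 from day 21. The day-21 cells had been sorted by a different set of surface markers. Only cells 2 and 38, both triple cells, had iHPCs among their 10 nearest cells, at 80% and 60%. Group sizes alone give 59.7%, so cell 38 lay at that share and cell 2 above it. None of the 42 Sfpi1- iHECs had any iHPC among the 10 nearest. The day of the neighboring iHPCs was not examined. Cells 2 and 38 also had the most genes above 1 TPM of all iHECs, 7447 and 7533. Cells 64 and 31, the triple cells with the highest Tyrobp, had no iHPC neighbors. The part of the number of genes in this placement was not tested.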

How the data were processed

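Single iHECs and iHPCs were amplified with the Discover-sc WTA Kit V2, checked by qPCR of B2m and Gapdh, and turned into libraries (TruePrep DNA Library Prep Kit V2). Per the labels and the study's methods, the authors aligned reads to mm10 with HISAT2 2.1.0 and deposited 1 table of TPM values from StringTie 1.3.4. Strandedness is not given in the sources used here. The table holds 23420 rows and 160 cells, whose TPM sum to 988686 to 999108.

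Cells were grouped by their labels and the iHECs then divided at 1 TPM of Sfpi1. Differences are of mean log2(TPM + 1), a scale that understates the change of low genes, over genes above 1 TPM in more than 10 iHECs, and a difference of 2 or more counted as called. With 1 sample there is no test. Shares carry exact 95% intervals, and 0 cells allows 3 cells of the total. Genes named are the 12 highest and lowest, the 10 most like Sfpi1, the fixed markers, and the members past 2 (or the 4 widest) of each of 22 lists. Other genes named from the lists, and individual cells, were chosen after their values were seen. Some items these rules name are not reported here. Of 366 listed genes, 365 were in the table. The members and lists were chosen with earlier results of these data known.

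Positions are from GENCODE M21 (87 of 88 named genes matched) and promoters from RefSeq GRCm38.p6 (58 of 88). Neighbors were taken by Euclidean distance on 10 principal components, with 5 and 20 components and Spearman distance as alternatives. Computation used Python 3.11.15, numpy 2.4.6, pandas 2.3.3, scipy 1.17.1 and matplotlib 3.10.9, and was tested on simulated data. Alternatives were other pseudocounts, filters, Sfpi1 thresholds, scalings and subsets of cells.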

Additional observations from a re-analysis of the deposited data

How the results depend on the processing

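The 40 named genes past 2 kept their direction in 560 of 560 values under the alternatives. They were chosen by that difference in these same cells, so a kept direction was largely fixed in advance. The other filters and the Sfpi1 threshold of 10 TPM cannot change a gene's difference at all. Of the list values, 8 of 308 took another direction. These were in lists whose mean difference was small, or in cell cycle (-0.08 in cells below the median number of genes). The counts of higher and lower genes depended on the settings. They were 610 and 102 with a pseudocount of 0.1, 2 and 5 with a pseudocount of 10, and 1209 and 327 at a difference of 1. Genes above 1 TPM in more than 30 iHECs gave 83 higher. Placing the 6 iHECs with Sfpi1 between 0 and 1 TPM among the Sfpi1+ cells gave 121 higher and 12 lower, sharing 77 and 10 with the main counts. Cells at or above the median number of genes gave 232 and 78, and cells below it 347 and 232. Of the main 135 higher and 19 lower genes, the former shared only 70 and 4, and the latter 93 and 19. Removing the trend over the number of genes gave 49 and 42. In alternatives added after seeing the data, the counts relative to the median difference were 76 and 32, and mean list differences became -0.26 for macrophage, -0.21 for mast cell, -0.11 for stromal, -0.25 for pluripotent or epithelial and -0.21 for sex-linked genes, all lists with most members at 0. Leaving out the 6 triple cells, also added later, gave 111 and 18, sharing 80 and 10 with the main counts. The differences were then 1.25 for Coro1a and 0.09 for Tyrobp, which these cells were chosen by. The leukocyte difference of medians (7 genes) lay between 4 and 8, and the endothelial one (-3) between -10 and 0. No paired analysis was possible because the numbers in the labels only name cells, and the result comes from no test. Depth is unknown, so a gene at 0 may have been missed.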
